A study of Triticum aestivum with 96 samples.

Results

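Flag leaves of mature bread wheat were followed through a pair of consecutive days in continuous light, and each hour of the second day was compared with the same hour of the first. The second cycle comprised the 24 mature-leaf libraries from ZT69 to ZT91, and the first cycle the 24 mature-leaf libraries from ZT45 to ZT67. ZT is Zeitgeber time, in hours since the dawn at which the lights were left on. These 48 libraries, chosen by their labelled stage and time, are part of a series of 96. The other 48 libraries came from senescent leaves and were used here only to ask whether the change between cycles differed between stages.

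All plants were Triticum aestivum of the Australian cultivar Mace, and the labels give no mutation, transgene or chemical treatment in either cycle. They had been raised in a growth room with 12 h of light at 20 °C and 12 h of dark at 15 °C, and from ZT0 onwards both light and temperature (20 °C) were constant. Mature plants were sampled while their ears emerged (Zadok's stage 51 to 59). Whole flag leaves of the primary tiller were frozen every 2 h, 4 plants per stage and time, and RNA of 2 leaves was combined for each library, so that every time point has 2 libraries. Different plants were cut at each time, so libraries 24 h apart are not repeated measures of a plant. The second cycle is also the one with 24 h more of constant light and 24 h more of leaf age, and these cannot be told apart. All p-values come from leaf pools of a single cultivar in a single growth room. Those for shape and for single times of day measure the spread between leaf pools. Those for level and for the stage by cycle term also take in how the cycle difference varied over the day. Those for rhythm and amplitude also take in departures from a 24 h cosine. The exact permutation tests measure the spread over times of day.

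The plant circadian clock is a network of transcription factors that repress one another in sequence through the day. Morning-expressed MYB-type repressors, daytime pseudo-response regulators and the evening complex, which contains EARLY FLOWERING 3, act in turn. Its output sets the hour at which genes of photosynthesis, starch turnover, growth and stress defence are transcribed. In constant light the clock runs without an external cue, which makes a free-running day comparable with the next. The deposited identifiers are of the Mace annotation and carry no gene names. Of 139118 identifiers, the reference gene table held 0, so clock genes and leaf markers could not be looked up and the leaf identity was not checked. Chromosomes, and with them the A, B and D subgenomes of this hexaploid wheat, were read from the identifiers.

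Expression is given as scaled counts, that is read counts times a constant that differs between libraries. The number of reads behind a library was estimated at 6846980 ± 931146 in the second cycle and 6971970 ± 988913 in the first (SD, n = 24 each; two-sided exact permutation test over the 12 times of day, p 0.702). The total scaled count was 7329650 ± 558914 in the second cycle and 7618010 ± 632976 in the first (SD, n = 24 each), lower in the second at 11 of 12 times of day (same exact test, p 0.0220). The median absolute log2 difference between the 2 libraries of a time point was 0.32 ± 0.08 in the second cycle and 0.33 ± 0.05 in the first (SD, n = 12 each; exact permutation p 0.663). The libraries of ZT91 stood apart with a difference of 0.56, and its replicate 1 was the least like a 24 h cosine of the genes' other time points (0.544 on a scale where the other 47 libraries had at least 0.71). Counts and values that move by over 1.5 times without it are given both ways.

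Few genes passed the test for a level change averaged over the day, and most of those that did were rhythmic. With the time of day as a covariate, 598 of 42218 tested genes were higher in the second cycle (1.42%) and 922 were lower (2.18%), together 3.6%, at a Benjamini-Hochberg adjusted p under 0.05 in limma. The median log2 fold change over all tested genes was -0.004. The median was 0.50 log2 among the higher genes and -0.42 log2 among the lower genes. A log2 difference of 1 or more was reached by 66 of the higher genes (0.156% of those tested) and 78 of the lower genes (0.185%). In these bulk leaves, a change in the share of a cell type and a change in RNA per cell cannot be told apart.

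The genes that fell mostly peaked in the subjective night or the hours after subjective dawn. Of the lower genes 88.3% were rhythmic over both cycles, and of the higher genes 74.2%, beside 54.1% of all tested genes. The called genes also had higher counts, with a median mean scaled count of 111.8 for the lower and 84.3 for the higher genes. Over all tested genes it was 54.8, so these shares do not compare genes of like level. Rhythmic lower genes peaked from 18 to 24 h after subjective dawn (the hour at which the lights would have come on) in 58.1% of cases and from 0 to 6 h in 27.8%. Among all rhythmic genes these shares were 37.1% and 14.7%. Peaks from 6 to 12 h made up 10.4% of the lower genes, against 35.1% of all rhythmic genes. The higher genes were closer to the whole at these hours, with 30.6% from 18 to 24 h, 12.4% from 0 to 6 h and 36% from 6 to 12 h. From 12 to 18 h they had a larger share than the whole, 20.9% against 13.1% of all rhythmic genes. These shares describe the lists and were not tested.

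The genes were called on their mean over the 12 times of day, so their course over the day is a description and no separate support. The median higher gene was above its first-cycle level at 11 of 12 times of day, and 97 of the 598 were above it at all 12. The median lower gene was above its first-cycle level at 2 of 12, and 111 of the 922 were below it at all 12. Over all tested genes, 120 were higher at every time of day and 137 were lower at every time. Without ZT69 to ZT73 and ZT45 to ZT49, a choice made after seeing the data, 171 genes were higher and 243 lower, of which 136 and 169 were among those called with all times.

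The balance of the directions moved with 1 of the ways of scaling the libraries. With every library scaled to the same total, 989 genes were higher and 529 lower, so the higher share of the calls was 65.2%, against 39.3% with the deposited scaling. That scaling put the median of all genes at 0.05 log2. Of the 598 and 922 genes, 598 and 529 were still called. Scaling libraries by the median of their gene ratios instead gave 615 higher and 885 lower. Without the replicate 1 library of ZT91, 821 genes were higher and 1285 lower, and leaving out ZT91 with ZT67 gave 974 and 1513. Leaving out ZT71, ZT73, ZT75 or ZT77 with its partner gave 367 and 574, 293 and 370, 371 and 488, or 393 and 555.

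Each replicate number alone has 12 libraries per cycle and gave fewer calls. Replicate 1 alone gave 27 higher genes (0.064% of those tested) and 67 lower genes (0.159%), and replicate 2 alone 11 (0.0261%) and 8 (0.0189%). All 27 and all 67 genes called in replicate 1 had the same direction in replicate 2, where 26 and 56 of them had an unadjusted p under 0.05. All 11 and all 8 genes called in replicate 2 had the same direction in replicate 1, with 7 and 5 at an unadjusted p under 0.05. Of all 42218 tested genes, 3826 had a limma unadjusted p under 0.05 in replicate 1 alone and 4400 in replicate 2 alone, in either direction. The change differed between replicate numbers for 0 genes (0%) in limma's cycle by replicate number term, with 1157 genes at an unadjusted p under 0.05.

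The level changes with the smallest p among those of at least 1 log2 were followed gene by gene. TraesMAC2B03G00936820 on chromosome 2B had a lowest, median and highest scaled count of 9.32, 40.9 and 107.5 in the second cycle, and of 1.14, 10.98 and 53.3 in the first. The cycles overlapped, but 8 second-cycle libraries were above every first-cycle library and 10 first-cycle libraries were below every second-cycle library. The level was 1.60 ± 0.23 log2 higher in the second cycle (SE; limma adjusted p 5.64e-05), in the same direction at 11 of 12 times of day. It was higher by 1.44 log2 in replicate 1 and by 1.76 log2 in replicate 2. The difference peaked just before subjective dawn: at ZT71 the replicates held 57.3 and 54.2, against 2.67 and 1.14 at ZT47 (3.91 log2, limma adjusted p 9.71e-05). No library of ZT69 to ZT73 was under 17.02, and none of ZT45 to ZT49 was over 10.9.

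TraesMAC2D03G01181400 on chromosome 2D had a like course. Its lowest, median and highest scaled counts were 7.57, 24.3 and 65.1 in the second cycle, and 0, 9.11 and 42.2 in the first. The cycles overlapped, with 11 first-cycle libraries below every second-cycle library. It was 1.19 ± 0.17 log2 higher in the second cycle (SE; limma adjusted p 5.64e-05), at 12 of 12 times of day. At ZT71 its replicates held 22.9 and 20.3, against 1.78 and 0 at ZT47.

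TraesMAC6D03G03798860 on chromosome 6D had the smallest p of the genes that fell by at least 1 log2. Its scaled counts had a lowest, median and highest value of 64.3, 239 and 1014 in the second cycle, and of 233, 738 and 3682 in the first. The cycles overlapped, with 12 second-cycle libraries below every first-cycle library and 9 first-cycle libraries above every second-cycle library. It fell by 1.70 ± 0.17 log2 (SE; limma adjusted p 8.09e-08), at 11 of 12 times of day. At ZT73 its replicates held 556 and 358, against 3682 and 2469 at ZT49. The exception was ZT91, where 545 and 1014 stood against 491 and 647 at ZT67. Its peak-to-trough difference stayed large, at 2.51 log2 in the second cycle and 2.86 log2 in the first.

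TraesMAC7A03G04032870 on chromosome 7A had a lower early-day rise in the second cycle. Its scaled counts had a lowest, median and highest value of 16.7, 26.6 and 39.7 in the second cycle, and of 26.01, 51.5 and 195.7 in the first. The cycles overlapped, but 18 first-cycle libraries were above every second-cycle library. It fell by 1.13 ± 0.13 log2 (SE; limma adjusted p 7.55e-07), at 12 of 12 times of day. Its peak-to-trough difference was 0.43 log2 in the second cycle and 1.55 log2 in the first. The 6D and 7A genes passed in each replicate number alone, with limma adjusted p from 0.00252 to 0.0491. The 2D gene passed in replicate 1 alone (0.0493) and not in replicate 2 (0.0838), and the 2B gene in neither (0.0901 and 0.0586 in limma).

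**Figure D1:**
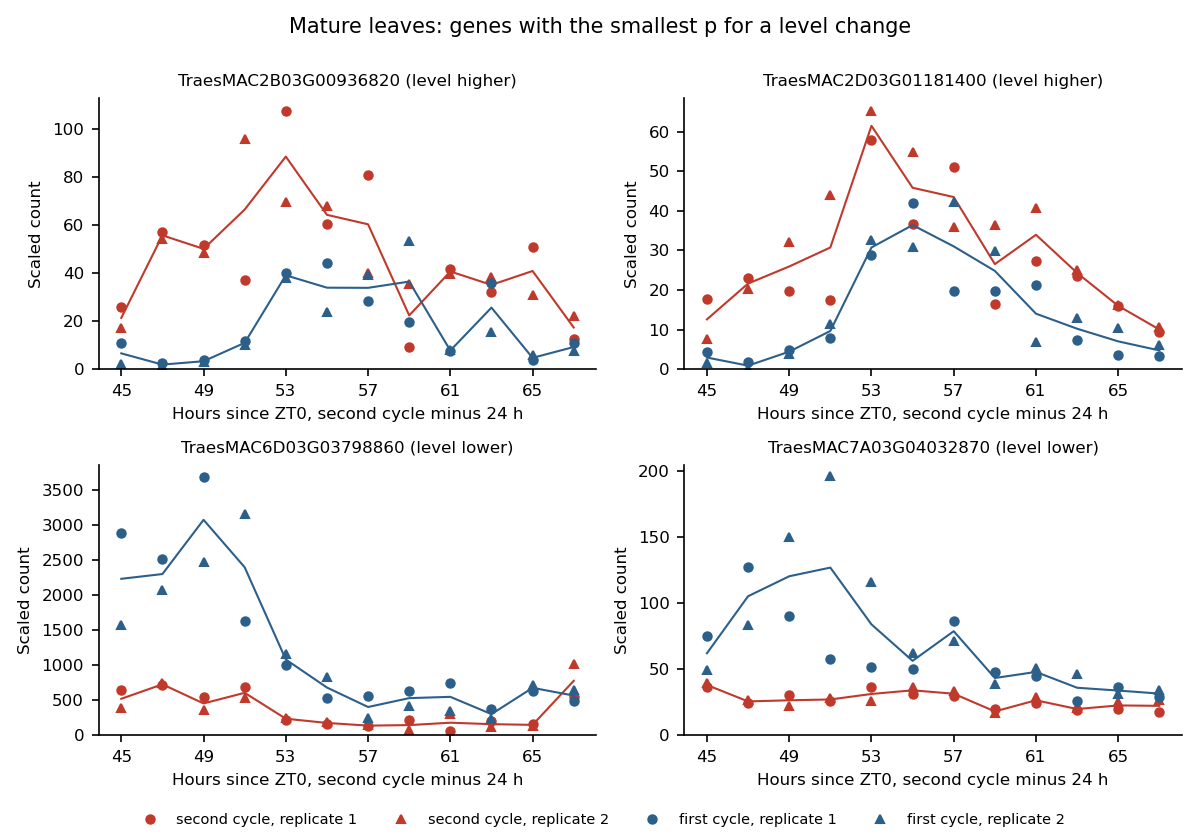
Scaled count (y) of the 4 genes against hours since ZT0 (x, second cycle minus 24 h), with a point per library, circles for replicate 1, triangles for replicate 2 and lines through the means of the 2 libraries. The 2B and 2D genes run above their first-cycle course and the 6D and 7A genes below theirs, except the 2B gene at ZT83 and the 6D gene at ZT91, with the widest gaps between hours 45 and 53.

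Calls at single times of day were concentrated around subjective dawn. At ZT71 against ZT47, the last time point before subjective dawn, 590 genes were higher in the second cycle (1.4%) and 643 lower (1.52%) in limma, with a median change of 1.52 log2 among the higher and -1.37 log2 among the lower. At ZT69 against ZT45 the counts were 44 (0.104%) and 41 (0.0971%), and at ZT73 against ZT49 they were 29 (0.0687%) and 91 (0.216%). These 3 times of day held 1438 of the 1442 calls made at all 12. Of the other 9 times, ZT77 gave 1 lower gene (0.00237%), ZT79 2 lower genes (0.00474%), ZT85 1 higher gene (0.00237%) and the remaining 6 none in limma, with 1204 to 5495 genes at an unadjusted p under 0.05. At an unadjusted p under 0.05 there were 5891 genes at ZT69, 7614 at ZT71 and 3857 at ZT73, so ZT91 against ZT67, with 5495, stood between these without a call. The median absolute log2 difference over all tested genes was 0.32 at ZT69, 0.35 at ZT71, 0.27 at ZT73 and 0.32 at ZT91, and 0.20 to 0.26 at the other 8 times.

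The genes called at ZT71 had opposite places in the day. Of the rhythmic genes that were higher there, 79.3% peaked from 6 to 14 h after subjective dawn, beside 40% of all rhythmic genes. Of those that were lower, 63.6% peaked from 18 to 2 h, beside 43%. The higher genes were thus mostly day-peaking and the lower genes mostly night-peaking. These counts rest on 4 libraries. Leaving out a library of ZT71 or ZT47 left 72 to 365 higher and 41 to 381 lower genes, with the fewest without the replicate 1 library of ZT47. The estimated hour of each of the 48 libraries, from the genes' other time points, was within -1.9 to 1.6 h of its label. It differed between cycles around subjective dawn, and as widely at hours with few or no calls. The ZT85 libraries were placed at 12.1 and 11.5 h, against 12.9 and 13.2 h at ZT61. Those of ZT87 were placed at 16.5 and 16.1 h, against 15.1 and 15.2 h at ZT63. At ZT71 the libraries were placed at 22.8 and 23.8 h, against 22.3 and 22.6 h at ZT47. At ZT69 they were placed at 19.8 and 19.1 h, against 21.1 and 20.9 h at ZT45. At ZT73 the estimates were 1.8 and 1.2 h, against 0.5 and 1.3 h at ZT49. Whether these differences in hour bear on the calls was not tested.

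**Figure D2:**
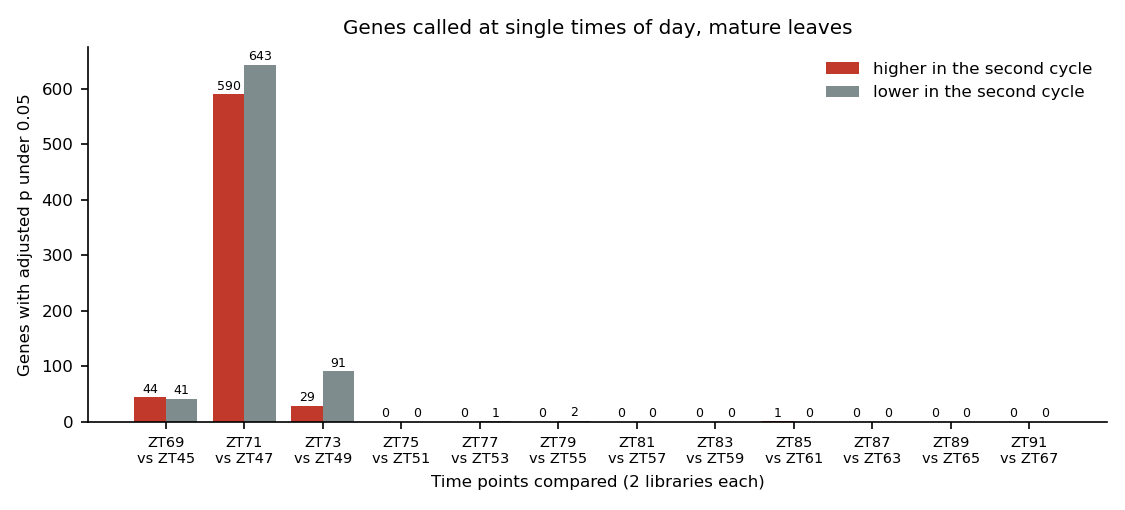
Genes with a limma adjusted p under 0.05 (y) at each time of day (x), each comparing 2 second-cycle with 2 first-cycle libraries, with bars for genes higher and lower in the second cycle. ZT71 against ZT47 has 590 higher and 643 lower genes, and every time of day from ZT75 on has at most 2 in either direction.

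The shape of the daily course was then tested in any form and as a 24 h rhythm. The course differed in shape for 62 genes (0.147%; 3994 at an unadjusted p under 0.05) in limma's test of all cycle by time-of-day terms. Of these, 54 were rhythmic and 52 had their largest difference at ZT69, ZT71 or ZT73. No share over all tested genes is given beside the 52. Differences over all tested genes were also larger at these times and at ZT91 than at the others, as given above. A 24 h cosine averaged over both cycles was significant for 22820 genes (54.1%). The cosine itself differed between cycles for 1706 genes (4.04%), of which 1458 had a smaller and 248 a larger amplitude in the second cycle. Without ZT69 to ZT73 and ZT45 to ZT49, 0 genes passed either of these limma tests, with 1812 and 4273 at an unadjusted p under 0.05. Changes of the cosine numbered 2588 without the ZT91 replicate 1 library and 3322 without ZT91 and ZT67. They numbered 125 without ZT71 and ZT47, and 589 to 993 without ZT69, ZT77, ZT81, ZT83 or ZT87 and its partner. Replicate 1 alone gave 0 and replicate 2 alone 1 in limma, with 4122 and 5336 at an unadjusted p under 0.05.

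Rhythms were shallower in the second cycle for most genes. Over the 22820 rhythmic genes the median peak-to-trough difference was 0.67 log2 in the second cycle and 0.81 log2 in the first. The median log2 amplitude ratio was -0.24, which is a ratio of 0.845, and 63.4% of the genes had the smaller amplitude in the second cycle. With every library scaled to the same total the median was -0.16. The middle 50% of genes ran from -0.82 to 0.23. For the same genes the median was -0.17 in replicate 1 and -0.32 in replicate 2. Gene by gene, the amplitude was smaller for 716 (3.14% of rhythmic genes) and larger for 39 (0.171%) in limma, and 598 of the 716 had a log2 ratio under -1.

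The amplitude calls depended on which times of day were kept and on the form of the fit. Without ZT69 to ZT73 and ZT45 to ZT49, 0 genes were smaller in limma (983 at an unadjusted p under 0.05) and 4 larger, and the median log2 ratio was -0.11. No other set of times was left out together for comparison. Without ZT71 and ZT47 alone, 74 were smaller and 15 larger, and without ZT73 and ZT49 alone 533 and 38. With a straight line added within each cycle, 5 were smaller and 2 larger, and the median log2 ratio was -0.10. Without ZT91 and ZT67, 1394 were smaller and 74 larger, and without the ZT91 replicate 1 library alone 969 and 56. Without ZT69, ZT77, ZT79, ZT81 or ZT87 and its partner, 266 to 422 were smaller and 15 to 22 larger. Replicate 1 alone gave 0 smaller and 1 larger, and replicate 2 alone 42 smaller and 0 larger, in limma. At an unadjusted p under 0.05 these were 1177 smaller and 424 larger in replicate 1, and 1796 smaller and 221 larger in replicate 2.

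The loss of amplitude followed the hour at which a gene peaked. Genes that peaked near subjective dawn or dusk lost most, with median log2 ratios of -0.83 for peaks from 0 to 2 h, -0.55 from 2 to 4 h, -0.63 from 10 to 12 h, -0.73 from 12 to 14 h and -0.52 from 22 to 24 h. Genes that peaked at 6 to 8 h, 16 to 18 h or 18 to 20 h had medians of 0.00, 0.03 and 0.09. These medians over genes were not tested. The 0 to 2 h bin held 1339 genes, of which 124 were smaller (9.26%), and the 6 to 8 h bin 2296 genes, of which 7 were smaller (0.305%). Of the 39 larger genes, 15 peaked from 16 to 18 h and 7 from 18 to 20 h. Those hours held 1107 and 2301 of the 22820 rhythmic genes. In replicate 1 these 5 low bins had medians from -0.62 to -0.40 and the 3 high bins from 0.07 to 0.15. In replicate 2 the low bins ran from -0.79 to -0.58 and the high bins from -0.11 to -0.02.

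**Figure D3:**
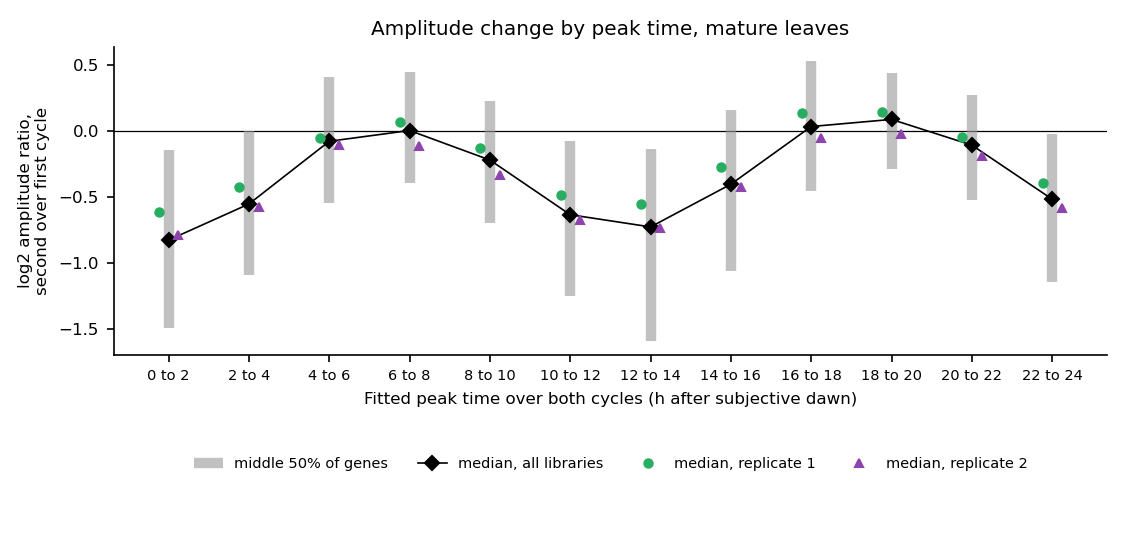
Median log2 amplitude ratio of the second over the first cycle (y) for rhythmic genes in 2 h bins of peak time (x), with grey bars for the middle 50% of genes, diamonds for all libraries, circles for replicate 1 and triangles for replicate 2. The ratio dips to -0.83 at 0 to 2 h and -0.73 at 12 to 14 h and stays near 0 at 6 to 8 h and 16 to 20 h.

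The same fits can be split into a dawn-dusk and a noon-midnight component for each rhythm. This restates the pattern by peak time from the same coefficients and is no separate support. The summed squares of the cosine coefficients, which carry peaks at 0 or 12 h, were 2711 in the second cycle and 5434 in the first, a ratio of 0.499. The sums of the sine coefficients, which carry peaks at 6 or 18 h, were 3375 in the second cycle and 3473 in the first, a ratio of 0.972. The cosine ratio was 0.511 in replicate 1 and 0.524 in replicate 2, while the sine ratio was 1.20 in replicate 1 and 0.792 in replicate 2. Over the alternatives that kept the 24 h period the cosine ratio stayed between 0.458 and 0.703, and it was 0.690 without ZT69 to ZT73 and ZT45 to ZT49. In senescent leaves, sampled at the same times, the cosine ratio was 0.922 and the sine ratio 1.09. The senescent median log2 amplitude ratio was 0.04 over 26271 rhythmic genes, and this contrast of stages was not tested.

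The peak times of the same fits restate this once more and are no separate support. Of the rhythmic genes, 39.4% had their fitted peak from 4 to 8 h or from 16 to 20 h in the second cycle and 26.2% in the first. Peaks from 6 to 8 h made up 13.8% in the second cycle and 7.85% in the first, and peaks from 22 to 24 h made up 8.79% in the second cycle and 13.8% in the first. Without the 3 dawn times the share at 4 to 8 h or 16 to 20 h was 35.9% in the second cycle and 32.1% in the first, and with every library scaled to the same total 31.3% in the second cycle and 23.3% in the first. Genes on the late side of these hours moved earlier, by a median of 0.97 h for peaks from 8 to 10 h and 0.72 h for peaks from 22 to 24 h, and genes on the early side moved later, by 1.11 h for peaks from 4 to 6 h.

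Peak times moved little on average. The mean shift over all rhythmic genes was -0.20 h (earlier in the second cycle), with -0.51 h in replicate 1 and 0.12 h in replicate 2, and 54.4% of genes were earlier. The replicate numbers thus differed in sign. The mean shift was -0.0739 h without the ZT91 replicate 1 library, -0.0143 h without ZT91 and ZT67, and -0.35 to -0.33 h without ZT79, ZT85 or ZT89 and its partner.

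**Figure D4:**
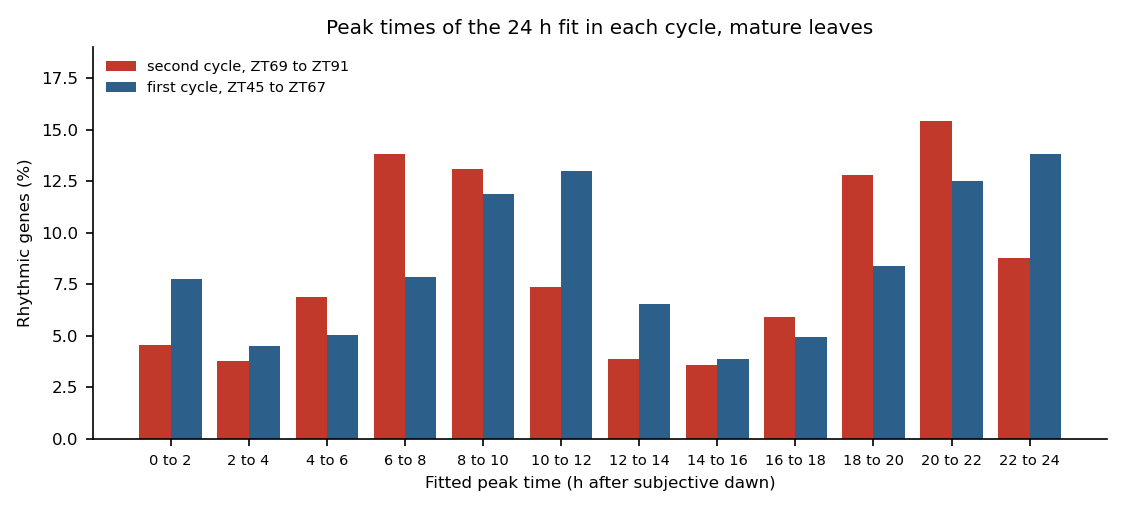
Share of the 22820 rhythmic genes (y, percent) whose 24 h fit peaked in each 2 h bin after subjective dawn (x), with bars for the second and the first cycle. The bins from 6 to 8 h and from 18 to 20 h are fuller in the second cycle, and those from 10 to 14 h and from 22 to 2 h are fuller in the first.

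Single genes showed both kinds of amplitude change. TraesMAC5B03G02979740 on chromosome 5B had a lowest, median and highest scaled count of 410, 1060 and 4033 in the second cycle, and of 693, 1198 and 2404 in the first. The second cycle reached past the first at both ends, with 5 libraries above and 8 below every first-cycle library. Its peak-to-trough difference was 2.75 log2 in the second cycle and 1.27 log2 in the first, larger by 1.48 ± 0.25 (SE; limma adjusted p 0.00326). It peaked at 17.3 h in the second cycle and 17.2 h in the first, and its mean level did not pass the test (-0.13 ± 0.11 log2, SE; limma adjusted p 0.664). The highest second-cycle values were 4033 and 3153 at ZT91, against 1792 and 2218 at ZT67. The 4033 came from the ZT91 replicate 1 library, and without that library the peak-to-trough difference was larger by 1.39 log2 (limma adjusted p 0.00267).

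TraesMAC5D03G03197960 on chromosome 5D ran in parallel with it. Its scaled counts had a lowest, median and highest value of 225, 674 and 3048 in the second cycle, and of 483, 998 and 1827 in the first. The second cycle again reached past the first at both ends. Its peak-to-trough difference was 2.97 log2 in the second cycle and 1.21 log2 in the first (difference 1.76 ± 0.31, SE; limma adjusted p 0.00326). The 3048 also came from the ZT91 replicate 1 library, without which the difference was 1.66 log2 (limma adjusted p 0.00289). Across the 48 libraries the log2 values of the 5B and the 5D gene correlated with r = 0.976, a description over libraries that share the rhythm.

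The genes with the smallest p for a change in shape lay beside these. TraesMAC5B03G02979620 is listed 2 rows from the 5B gene and TraesMAC5D03G03197920 1 row from the 5D gene. The first had a fitted swing, from peak to trough, of 3.16 log2 in the second cycle and 0.99 log2 in the first (limma adjusted p 0.000237 for the shape). The second had 3.05 log2 in the second cycle and 0.78 log2 in the first (limma adjusted p 0.00321). Their highest scaled counts, 1214 for the first and 2080 for the second, came from the ZT91 replicate 1 library. All 4 genes peaked from 15.1 to 18.1 h after subjective dawn in either cycle. How reads that match several near-identical copies were shared out is not given in the sources used here, so values of single copies are uncertain.

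TraesMAC3B03G01658410 on chromosome 3B had a shallower rhythm in the second cycle. Its scaled counts had a lowest, median and highest value of 834, 962 and 1191 in the second cycle, and of 812, 1025 and 1743 in the first. The troughs were alike, and 11 first-cycle libraries were above every second-cycle library. The peak-to-trough difference was 0.27 log2 in the second cycle and 0.91 log2 in the first (difference -0.64 ± 0.11, SE; limma adjusted p 0.00326). The gene peaked about an hour after subjective dawn in both cycles, and its level fell by 0.21 ± 0.05 log2 (SE; limma adjusted p 0.0139).

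TraesMAC6A03G03282090 on chromosome 6A flattened, with no called change in its mean. Its scaled counts had a lowest, median and highest value of 244, 363 and 643 in the second cycle, and of 172, 389 and 678 in the first. The ranges overlapped almost wholly, and the highest second-cycle value came from the ZT91 replicate 1 library, whose partner held 291. The peak-to-trough difference was 0.28 log2 in the second cycle and 1.497 log2 in the first (difference -1.22 ± 0.21, SE; limma adjusted p 0.00326). In replicate 1 it was 0.07 log2 in the second cycle and 1.53 log2 in the first, and in replicate 2 it was 0.61 log2 in the second cycle and 1.47 log2 in the first. Its mean level gave -0.06 ± 0.10 log2 (SE; limma adjusted p 0.839). With a single replicate number, the amplitude of the 5B gene of larger amplitude passed in replicate 1 (limma adjusted p 0.0284). The 7 other such tests of the 4 genes had limma adjusted p from 0.0722 to 0.27. Each had the same direction, which the choice of these genes required.

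**Figure D5:**
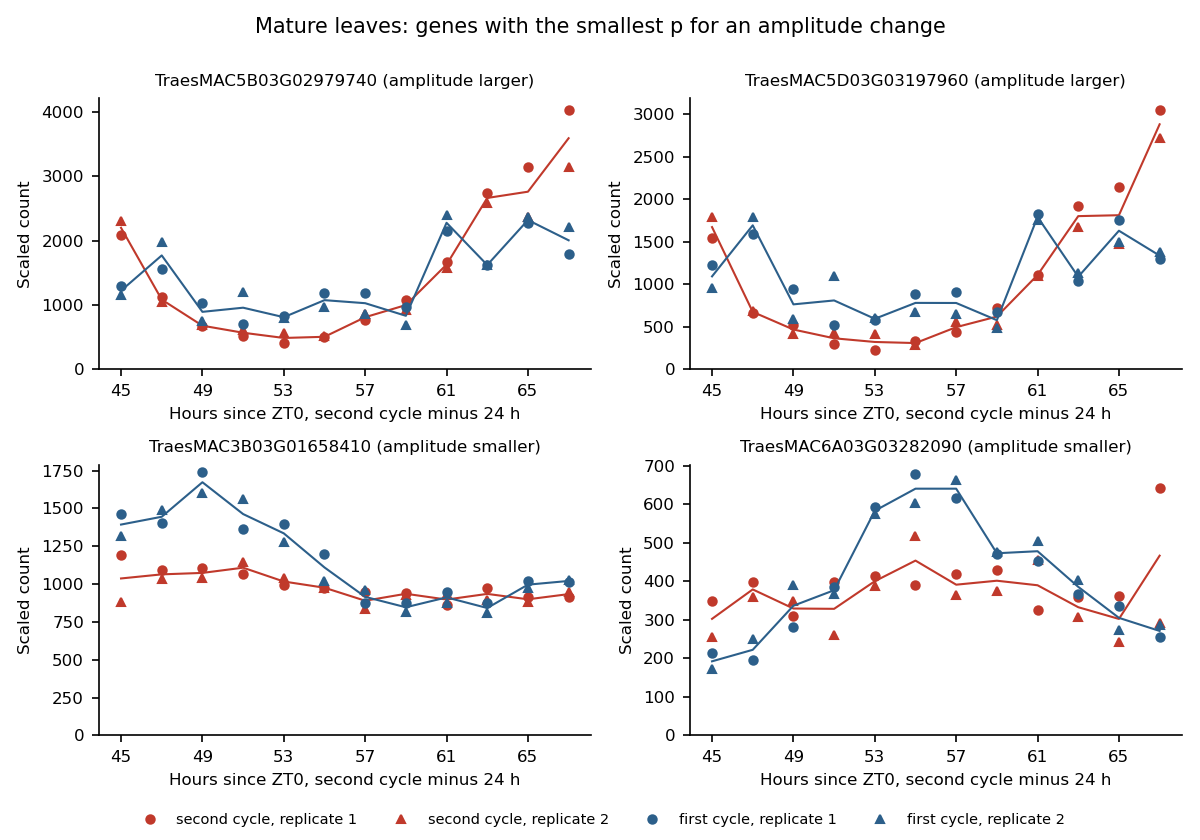
Scaled count (y) of 4 genes with an amplitude change against hours since ZT0 (x, second cycle minus 24 h), with a point per library, circles for replicate 1, triangles for replicate 2 and lines through the means of the 2 libraries. The 5B and 5D genes swing more widely in the second cycle, and the 3B and 6A genes swing less in it.

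The changes were spread over the 3 subgenomes and 21 chromosomes. Of the tested genes, 1.44% on A, 1.4% on B and 1.41% on D were higher, and 2.22%, 2.02% and 2.32% were lower. The amplitude was smaller for 3.16% of rhythmic genes on A, 3.09% on B and 3.16% on D. Some called genes had a neighbour with the same call. Of 371 higher genes with a tested neighbour in the row before or after, 47 had a neighbour that was also higher (12.7%). Of all tested genes 1.42% were higher. For lower genes it was 87 of 608 (14.3%, beside 2.18%). For genes of smaller amplitude it was 22 of 433 (5.08%, beside 1.7% of all tested and 3.14% of rhythmic genes). A gene could count through either of its neighbours, so the shares set side by side are unlike measures. Neighbours can be near-identical copies, and these shares were not tested.

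Whether the level change of mature leaves differed from that of senescent leaves was asked over all 96 libraries. Stage and sowing batch coincide, since the plants of the 2 stages were sown 28 days apart. The stage by cycle term passed for 286 of 42428 genes (0.674%; 5176 at an unadjusted p under 0.05) in limma, with a more positive change in mature leaves for 234 and a more negative one for 52. Within senescent leaves alone, 2154 genes were higher in the second cycle (5.16%) and 4263 lower (10.2%), of 41715 tested. Of the 1490 genes called in mature leaves and tested in both fits, 595 were called in the same direction in senescent leaves, and for 51 the change differed between stages. Each replicate number alone gave 0 genes in limma for the stage by cycle term, with 2947 in replicate 1 and 2944 in replicate 2 at an unadjusted p under 0.05. Without ZT69 to ZT73 and ZT45 to ZT49 it passed for 3 genes.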

How the data were processed

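Wheat flag-leaf RNA was sequenced in 48 mature-leaf libraries, 24 per cycle. STAR, Cufflinks and Cuffnorm are named in the submitters' processing notes, with no versions, order or genome build given in the sources used here. The deposited signal values are read counts per gene times a constant for each library: taking the most frequent low value as 1 read, at least 99.97% of values above 0 and below 50 reads lay within 0.02 reads of a whole number. The deposited FPKM values (per gene length and library size, by the authors) served as an alternative. Because the deposited values are scaled and a few are fractions of a read, whole reads were not taken as recovered and no count test was run. A further 48 columns of FPKM, from senescent leaves, were not used.

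A gene entered a fit if its scaled counts averaged 10 or more over the fitted libraries. Tests used limma 3.58.1 in R 4.3.3 (variance trend) on log2(scaled count + 2), with no further scaling and Benjamini-Hochberg adjustment over all tested genes. Fold changes are on that scale, which understates changes of low genes. Level: 12-level time of day plus cycle. Shape: cycle by time-of-day terms. Rhythm: 24 h cosine and sine per cycle. Amplitude: second minus first, delta-method SE, over genes rhythmic on average over both cycles. Depth and replicate differences were compared by two-sided exact sign-flip tests (4096 flips). The fits were tested on simulated counts, where the shape test recovered most genes with a large change at a single time of day but few of those with a moderate change in amplitude. Named genes are the 2 of smallest p per direction for level (at least 1 log2) and amplitude, with the same direction in both replicate numbers, and the 2 of smallest p for shape. The members, rules and tests were chosen with earlier results of these data known. The alternatives changed pseudocount, filter, scaling, values, period, pairing, threshold, times of day and replicates. Tables were read with version 1.17.8 of data.table and plots drawn with matplotlib 3.10.9.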

Additional observations from a re-analysis of the deposited data

Results flagged for a closer look

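The level change between cycles differed between mature and senescent leaves, by a direct test of the difference in limma, for 286 genes. Among the genes named here this held for 3. TraesMAC2B03G00936820 changed by 1.70 log2 more in mature than in senescent leaves (limma adjusted p 0.00238). TraesMAC2D03G01181400 changed by 1.03 log2 more (limma adjusted p 0.0216). In senescent leaves both were under the minimum mean of 10 and were not tested there. The 2B gene averaged 1.43 ± 1.89 scaled counts in the second cycle and 1.71 ± 2.11 in the first, and the 2D gene 1.82 ± 2.19 in the second cycle and 1.28 ± 1.52 in the first (SD, n = 24 each). At such levels the pseudocount of 2 compresses any change in senescent leaves. TraesMAC7A03G04032870 changed by -0.83 log2, a deeper fall in mature leaves (limma adjusted p 0.0183). Each has a difference of the same sign in all of its alternatives, but none of the 3 passed with either replicate number alone or without ZT69 to ZT73 and ZT45 to ZT49 (adjusted p from 0.079 to 0.691 in limma). TraesMAC2D03G01181400 also missed the threshold with a pseudocount of 0.5 (limma adjusted p 0.149). Stage coincides with sowing batch, and the 2 cannot be told apart. Groups of 24 libraries are too large for a search for single outlying samples by gap and range, so none was made.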

How the results depend on the processing

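Counts moved by more than 1.5 times under these settings, and the cause was not tested unless named. Scaling to the same total gave 989 genes higher and 529 lower in level, and the 1 log2 threshold, by construction, 66 and 78. With 1 replicate number left out, level calls were 11 to 27 higher and 8 to 67 lower, amplitude calls 0 to 1 larger and 0 to 42 smaller, rhythm-change calls 0 to 1, stage-difference calls 0, the median log2 amplitude ratio -0.27 to -0.15 (genes chosen anew) and the mean phase shift -0.504 to 0.0446 h, which changed sign without replicate 1. With 1 time of day left out, level calls ran from 293 to 974 higher and 370 to 1513 lower, rhythm-change calls from 125 to 3322, and amplitude calls from 15 to 74 larger and 74 to 1394 smaller, and the median ratio from -0.29 to -0.21. The highest of each came without ZT91 and ZT67, and the lowest without ZT73 and ZT49 for level and without ZT71 and ZT47 for rhythm and amplitude (15 larger also without ZT69 and ZT45). A period of 22 h gave 3749 rhythm changes, 13 larger and 166 smaller amplitudes and a shift of 1.44 h, and 26 h gave 7567 rhythm changes and a shift of -1.79 h; libraries 24 h apart then sit at other phases by construction. A line within each cycle gave 6 rhythm changes, 2 larger and 5 smaller amplitudes and a median ratio of -0.10. Genes rhythmic in each cycle alone gave 14 larger, 219 smaller and -0.10, and the range of time-of-day means gave -0.12. No filter gave 95 shape changes, 722 rhythm changes and, at ZT71, 386 higher and 420 lower. At ZT71, genes higher and lower were 365 and 381 without its replicate 1, 129 and 205 without its replicate 2, 72 and 41 without ZT47 replicate 1, and 206 and 129 without ZT47 replicate 2.

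Chosen after seeing the data, leaving out ZT91 replicate 1 gave 2588 rhythm changes, a mean shift of -0.0739 h and, moved by less than 1.5 times, 383 stage differences, and leaving out ZT69 to ZT73 and ZT45 to ZT49 gave 171 higher, 243 lower, 0 shape changes, 0 rhythm changes, 4 larger, 0 smaller, 3 stage differences and a median ratio of -0.11. In limma, the genes at an unadjusted p under 0.05 were then 1812 for shape, 4273 for rhythm and 983 for a smaller amplitude.

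Replicate numbers did not pair libraries 24 h apart: deviations correlated between -0.11 and 0.24, above 0.1 for 3 of 12 times. With the replicate block, 31 genes changed in shape against 62, and no other count moved by over 1.5 times. There were 220 alternative values of the genes named for level or amplitude. Of these, 206 kept their direction and side of the threshold, 14 missed the threshold and 0 changed sign. The genes had been picked for small p-values and for replicates of equal sign, so this tally is no separate support. Some settings, such as the replicate block or no filter, also leave the estimate itself unchanged. Scaling by trimmed means and the count tests were not run, since the deposited values are scaled and a few are fractions of a read.

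With 2 libraries per time point, single times of day gave calls only where changes were large. Scaled counts under about 10 stand for a few reads, so fold changes at such times are imprecise.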
